A study of Mus musculus with 8 samples.

Results

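Sterol and fatty acid synthesis under the sterol regulatory element-binding proteins (SREBP) was followed through 8 genes, Srebf1, Srebf2, Hmgcs1, Sqle, Idi1, Insig1, Fasn and Acaca, out of 22911 genes with a named probe. They were taken by name, through the RefSeq accession of each probe, and not by their signal. They had 11 probes, 4 of them for Acaca and 1 for each other gene, and all 11 were well above background on the 8 arrays. Photoreceptor cells had been collected with an antibody to CD73 at postnatal day 8 from retinas of mice labelled C57BL/6, and their RNA was hybridised to single-color Agilent arrays, with 4 arrays labelled Lpcat1 KO and 4 labelled Lpcat1 HZ. HZ stands for heterozygous, so that the comparison group carried a deleted allele as well, and no array was labelled wild type. According to the methods the KO line arose on C57BL6/N and was bred to C57BL6/J against the retinal mutation rd8, and the mice used were not homozygous for rd8. Lpcat1 encodes the enzyme that makes saturated phosphatidylcholine from lysophosphatidylcholine. The sources used here do not say whether the arrays of a group came from separate animals, so that p-values measure the spread between these samples.

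The 8 arrays lay on a single slide, with KO in row 1, HZ in row 2 and the replicate number as the column. Slide row and genotype cannot be told apart. The 75th percentile of signal lay between 882 and 1024 intensity units, between 59.5% and 63.8% of probes were well above background, and 0 spots were saturated. HZ replicate 4 had 458 non-uniform spots, against 2 to 25 on the other arrays. The median coefficient of variation of replicated spots was 17.4% on KO replicate 4 and 14.8% on HZ replicate 4. On the other arrays it was 9.50% to 12.2%. Values below are the log2 signal minus that percentile, and differences are KO minus HZ. The number of arrays limits their precision. The Lpcat1 probe read -0.81, -0.95, -1.02 and -1.17 on HZ replicates 1 to 4 and -0.97, -1.16, -1.11 and -0.85 on KO replicates 1 to 4. The groups overlapped, with a difference of -0.04 (standard error 0.11) whose sign changed with normexp background correction and when either HZ replicate 1 or KO replicate 2 was left out. This probe did not separate the labels. Where it lies with respect to the deletion was not analysed, and HZ and KO below mean arrays labelled so.

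As background, SREBP precursors sit in the endoplasmic reticulum membrane with the escort protein Scap. When sterol is scarce, Scap carries them to the Golgi, where proteases release the part that enters the nucleus, and when sterol is plentiful Insig proteins hold the complex back. SREBP-2, from Srebf2, acts mainly on cholesterol genes and SREBP-1c, from Srebf1, mainly on fatty acid genes, and photoreceptors need both lipids for the membranes of the outer segment.

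The clearest differences among the 8 genes were those of fatty acid synthesis. Fasn and Acaca were higher in KO without overlap between the groups, while the sterol enzymes Hmgcs1, Sqle and Idi1 and the factors Srebf1 and Srebf2 differed by less and overlapped. Insig1 was lower. At an adjusted p under 0.05 limma called 0 of the 8 genes, and 0% of all 14840 tested genes, and the methods' t-test called 0 of the 8 as well. With a fold over 1.2 and an adjusted p under 0.5 it called 2 higher, Fasn and Acaca, and 0 lower, where 1.66% of all tested genes were called higher and 1.65% lower. These 2 calls rest on a mix of the looser limits, which was not one of the planned pairs of limits. The 8 genes were themselves chosen with earlier results of these data known. The methods do not pair their limits, and 0 of the 8 passed 1.2 with 0.05 or 1.5 with 0.5. Under the replicate block the same mix called Insig1 lower as well, with an adjusted p of 0.371, where 6.32% of all tested genes were called higher and 8.20% lower. With a fold over 1.5 and an adjusted p under 0.5 limma without the block called 0, beside 1.46% of all tested genes. At an unadjusted p under 0.05, 2 of the 8 were higher, beside 5.81% of all tested genes, and 1 was lower, beside 3.50%. The groups did not overlap for 2 genes that were higher, beside 5.48% of all tested genes, and for 0 that were lower, beside 2.52%. The median difference over the 8 genes was 0.04, and over all tested genes 0.03.

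**Figure D1:**
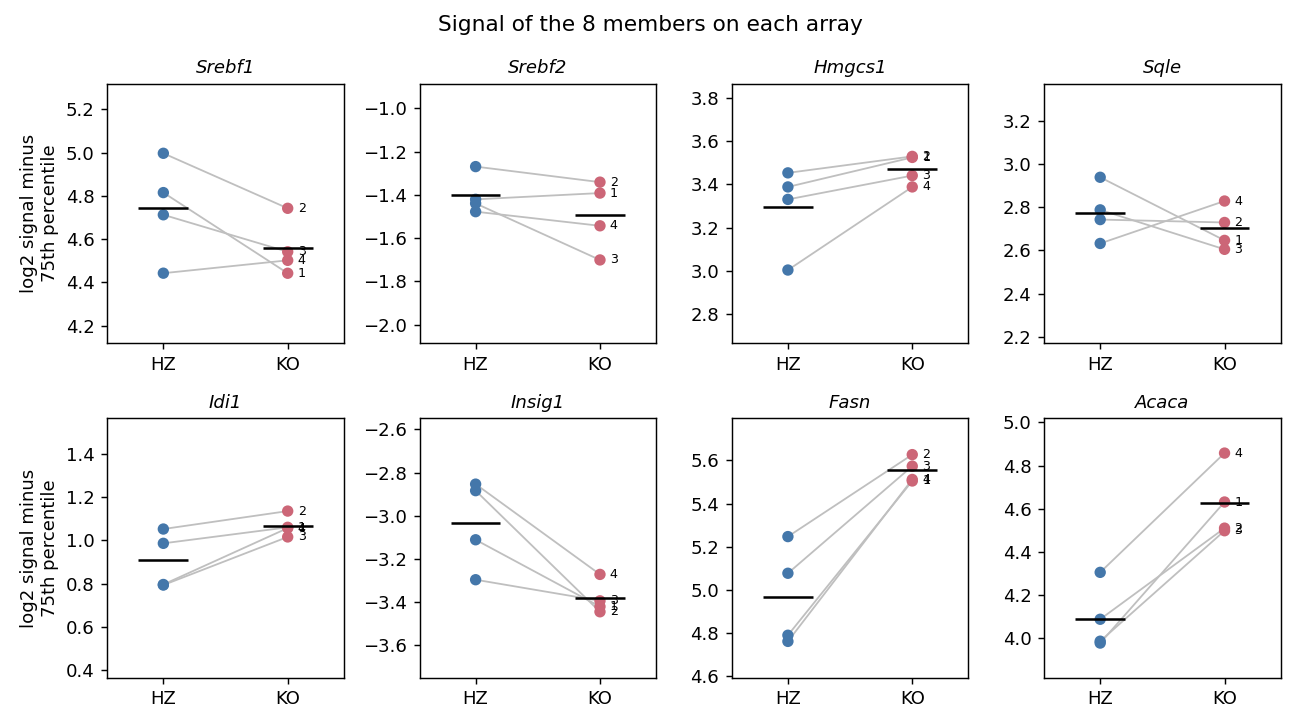
Log2 signal minus the array's 75th percentile (vertical axes, each spanning the same range) of the 8 genes on arrays labelled HZ (blue) and KO (red). Grey lines join arrays with the same replicate number, which stands beside the KO point, and black bars are group means. For Fasn and Acaca each KO array lies above each HZ array, and the other 6 genes overlap.

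Acaca encodes acetyl-CoA carboxylase, which makes malonyl-CoA, the committed step of fatty acid synthesis. Its brightest probe read 3.98, 4.09, 3.99 and 4.31 on HZ replicates 1 to 4 and 4.63, 4.51, 4.50 and 4.86 on KO replicates 1 to 4. Both groups were highest on the array numbered 4, and each KO array lay above each HZ array. The difference was 0.53 (standard error 0.12, 95% confidence interval 0.26 to 0.81), a 1.448-fold higher signal, with a limma adjusted p of 0.363 and KO higher in 4 of 4 pairs of equal number. The other Acaca probes differed by 0.54, 0.24 and 0.62, and their groups did not overlap either. These probes share a gene and are not replicates of each other.

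Fasn encodes fatty acid synthase, which builds palmitate from malonyl-CoA. Its probe read 4.79, 5.25, 5.08 and 4.76 on HZ replicates 1 to 4 and 5.50, 5.63, 5.57 and 5.51 on KO replicates 1 to 4. The KO arrays lay close together (SD 0.06) and the HZ arrays were spread more widely (SD 0.23). The difference was 0.58 (standard error 0.12, 95% confidence interval 0.30 to 0.87), just under the 1.5-fold threshold, with a limma adjusted p of 0.363. By replicate number KO exceeded HZ by 0.71, 0.38, 0.50 and 0.75. The calls of Fasn and Acaca depended on single arrays. Past a fold of 1.2 with the limit of 0.5 on the adjusted p, both were lost without HZ replicate 1 (adjusted p of 0.630 and 0.645), HZ replicate 3 (0.726 and 0.766), KO replicate 2 (0.647 and 0.615), KO replicate 3 (0.633 for both) or KO replicate 4 (0.611 and 0.637). Without KO replicate 1, Acaca alone was lost (0.513). Both were also lost with no filter on dim probes (0.716 and 0.7498) and without both arrays numbered 4 (0.649 and 0.539). At a fold of 1.5, Fasn passed with the authors' values (0.60), without HZ replicate 2 (0.68) and without KO replicate 1 (0.60), and Acaca passed without HZ replicate 4 (0.61). Over all alternatives the adjusted p ranged from 0.122 to 0.726 for Fasn and from 0.160 to 0.766 for Acaca, while the unadjusted p of both stayed under 0.05. In a bulk sample, a different share of cells and a different amount of RNA per cell cannot be told apart.

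**Figure D2:**
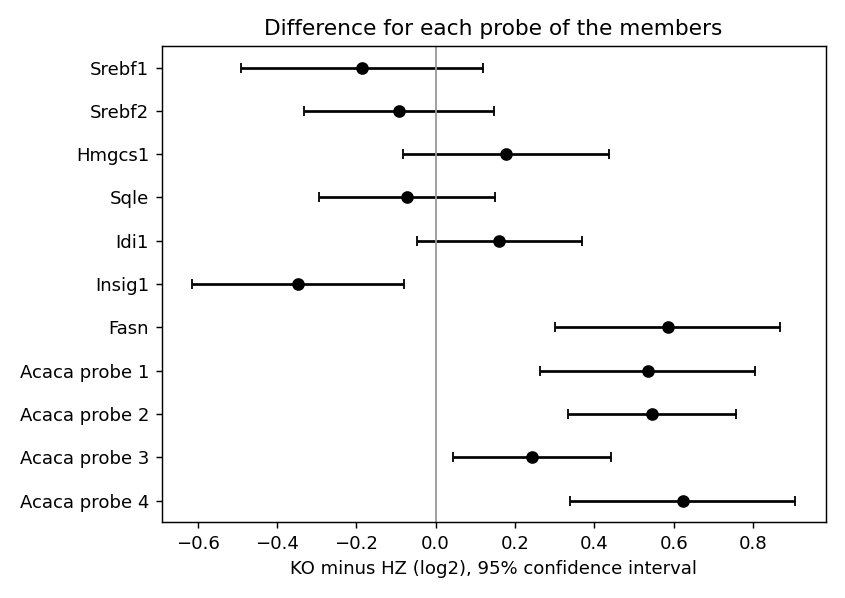
KO minus HZ difference (log2, horizontal axis) of each of the 11 probes of the 8 genes, with its limma 95% confidence interval, for arrays labelled KO and HZ. The intervals of Fasn and of the 4 Acaca probes lie above 0, that of Insig1 lies below 0, and the others include 0.

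Insig1 encodes the protein that retains the Scap complex in the endoplasmic reticulum and is itself a target of SREBP. Its values were -3.11, -2.88, -3.30 and -2.85 on HZ replicates 1 to 4 and -3.42, -3.44, -3.39 and -3.27 on KO replicates 1 to 4. The groups overlapped narrowly, through HZ replicate 3 and KO replicate 4, and KO was lower in each pair of equal number. The difference was -0.35 (standard error 0.12, limma unadjusted p = 0.0175, adjusted p = 0.520). It was -0.05 with normexp background correction, where the unadjusted p was 0.557 and the call was lost. At a fold of 1.2 with the limit of 0.5 on the adjusted p, Insig1 was gained under the replicate block (0.371), by the methods' t-test (0.444), among probes detected on each array (0.461), with the percentile over detected probes (0.497) and without HZ replicate 2 (0.331). The adjusted p ranged from 0.331 to 0.902 over the alternatives.

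Hmgcs1 encodes HMG-CoA synthase of the early mevalonate pathway. It read 3.39, 3.45, 3.33 and 3.00 on HZ replicates 1 to 4 and 3.52, 3.53, 3.44 and 3.39 on KO replicates 1 to 4. HZ replicate 4 stood lowest, KO was higher in each pair, and the difference was 0.18 (standard error 0.11, limma adjusted p = 0.702), or 0.08 without HZ replicate 4. Idi1, the isopentenyl diphosphate isomerase, lay between 0.79 and 1.05 in HZ and between 1.02 and 1.14 in KO, with a difference of 0.16 (standard error 0.09). Its unadjusted p was 0.114, and 0.0467 without HZ replicate 2. Sqle, the squalene epoxidase that commits squalene to sterols, lay between 2.63 and 2.94 in HZ and between 2.60 and 2.83 in KO. Its difference of -0.07 (standard error 0.10) was 0.09 with normexp background correction.

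Srebf1 read 4.82, 4.997, 4.71 and 4.44 on HZ replicates 1 to 4 and 4.44, 4.74, 4.54 and 4.50 on KO replicates 1 to 4. Its difference was -0.18 (standard error 0.13, limma unadjusted p = 0.200), and -0.28 without HZ replicate 4, where the unadjusted p was 0.0386. Srebf2 lay between -1.48 and -1.27 in HZ and between -1.70 and -1.34 in KO. Its difference was -0.09 (standard error 0.10) and changed sign, to 0.04, with normexp background correction. Whether the fatty acid genes differed from the sterol genes in their response was not tested.

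The stretch before the start of a gene was looked up in RefSeq (GRCm38.p6) for 7 of the 8 genes, as these genes share a regulator. Both strands of the 250 bases before each start were searched for TCACNCCAC, a form of the sterol regulatory element, for CACGTG, the E-box, and for CCAAT, the box bound by NF-Y. Of 32851 such stretches of all genes, 1.05% held the first, 6.02% the second and 33.8% the third. The first was found in Hmgcs1 and the second in Insig1, each 1 time. CCAAT was found 3 times in Hmgcs1, 1 time in Insig1 and 3 times in Fasn, where 2 of the matches overlap on opposite strands, 2 times in Idi1, 1 time in Srebf2, 1 time in 2 of the 3 stretches of Srebf1, and 0 times in Acaca. Those of Hmgcs1, Insig1 and Fasn are shown, since they hold the motifs found and belong to a sterol enzyme, to the gene that was lower and to a gene that was higher. Capitals mark the matches. They lie at chr13:119690101-119690350 (+), chr5:28071162-28071411 (+) and chr11:120824548-120824797 (-).
Hmgcs1: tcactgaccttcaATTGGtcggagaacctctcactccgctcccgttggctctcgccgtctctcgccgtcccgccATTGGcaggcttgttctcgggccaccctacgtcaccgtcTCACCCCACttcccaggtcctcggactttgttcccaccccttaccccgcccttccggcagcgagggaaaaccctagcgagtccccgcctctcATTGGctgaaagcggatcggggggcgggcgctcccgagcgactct
Insig1: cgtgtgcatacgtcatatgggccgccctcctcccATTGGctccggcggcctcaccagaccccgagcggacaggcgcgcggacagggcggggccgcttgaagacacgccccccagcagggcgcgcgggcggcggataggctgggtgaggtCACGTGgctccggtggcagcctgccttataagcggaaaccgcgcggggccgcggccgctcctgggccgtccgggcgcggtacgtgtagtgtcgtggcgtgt
Fasn: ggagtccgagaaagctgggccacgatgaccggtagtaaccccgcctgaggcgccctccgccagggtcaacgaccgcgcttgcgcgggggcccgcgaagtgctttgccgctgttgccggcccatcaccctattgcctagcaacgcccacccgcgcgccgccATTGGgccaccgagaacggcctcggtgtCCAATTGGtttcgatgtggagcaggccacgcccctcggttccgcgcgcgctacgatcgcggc
A match describes these letters, and binding was not measured.

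Genes that hold, escort, cut or degrade the precursors were compared next. Of 15 tested regulators, 5 were higher and 10 lower, with a median of -0.06. At an unadjusted p under 0.05, 1 was higher, Rnf145, and 1 lower, Insig1, beside 5.81% and 3.50% of all tested genes. Rnf145 encodes a ubiquitin ligase of the endoplasmic reticulum that acts on Scap. Its brightest probe read 3.15, 3.21, 3.04 and 2.76 on HZ replicates 1 to 4 and 4.15, 4.14, 4.09 and 4.20 on KO replicates 1 to 4. The groups lay far apart relative to their spread, with a difference of 1.102 (standard error 0.11, limma unadjusted p = 7.55e-06, adjusted p = 0.157), past a fold of 1.5 at the limit of 0.5. The adjusted p was 0.0256 with normexp background correction and 0.0209 with trend and robust eBayes. It was above the limit when HZ replicate 1 (0.585), HZ replicate 3 (0.633) or KO replicate 3 (0.508) was left out and without both arrays numbered 4 (0.539). The mean of its probes differed by 0.51. Its other probes differed by -0.32 (standard error 0.19) and 0.75 (standard error 0.11), so that the probes of this gene disagreed in direction. After Rnf145 and Insig1 came Rnf139 at 0.22, Srebf1 at -0.18 and Pgrmc1 at -0.17. The groups of the last 3 overlapped, and Rnf139 and Pgrmc1 had the opposite sign after normexp background correction (-0.08 and 0.04). That correction also left 8 of the 15 regulators higher.

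In the mevalonate pathway 8 of 8 tested genes were higher, with a median of 0.10, and Acat2 had no named probe. The count was 7 of 8 with quantile normalization, with normexp background correction, with the percentile taken over detected probes alone and when HZ replicate 3, HZ replicate 4 or KO replicate 1 was omitted, and it was 5 of 8 without both arrays numbered 4. Among all tested genes 8434 were higher and 6406 lower. Mvd was at 0.11 and Ggps1 at 0.10, and Ggps1 was at -0.09 with normexp background correction. Of 12 tested genes from squalene to cholesterol, 3 were higher and 9 lower, with a median of -0.04 and 0 past an unadjusted p of 0.05 in limma. With normexp background correction 6 were higher and 6 lower. Cyp51 (0.23), Tm7sf2 (-0.21), Nsdhl (-0.12), Lss (0.10) and Msmo1 (-0.09) differed most, and Tm7sf2 was lower in KO without overlap. The other Cyp51 probe differed by -0.05, and Lss was at -0.07 with normexp background correction. Other Lss probes differed by -0.04 and -0.07. Ebp differed by -0.03 on its brightest probe and by 0.275 on its other probe (limma unadjusted p = 0.0346).

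For uptake and transport of sterol, 6 of 15 tested genes were higher and 9 lower, with a median of -0.05. At an unadjusted p under 0.05, 0 were higher and 3 lower, beside 5.81% and 3.50% of all tested genes. Mylip, which encodes a ubiquitin ligase, differed by -0.31 (standard error 0.11) without overlap, and its unadjusted p was 0.0532 without HZ replicate 4 and 0.0704 without both arrays numbered 4. Gramd1a, a carrier of sterol from the plasma membrane, differed by -0.40 (standard error 0.17) and its other probe by 0.14. Its call was lost with the replicate block (unadjusted p = 0.0555), with no filter on dim probes (0.0614), with the authors' values (0.0583), by the methods' t-test (0.0731) and with the mean of its probes, which differed by -0.13. It was also lost without both arrays numbered 4 (0.194) and when HZ replicate 1 (0.0739), HZ replicate 2 (0.113), HZ replicate 4 (0.0908), KO replicate 1 (0.122) or KO replicate 4 (0.122) was left out. Lipa (0.26) and Gramd1c (0.20) did not pass an unadjusted p of 0.05.

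Of 11 tested genes of efflux and oxysterols, 7 were higher and 4 lower, with a median of 0.02, and with quantile normalization 5 were higher and 6 lower. Soat1, which esterifies cholesterol, differed by -0.23 (standard error 0.09, limma unadjusted p = 0.0369) without overlap, and its dimmest probe by 0.21. It was at -0.07 with normexp background correction (unadjusted p = 0.447), and its call was also lost when HZ replicate 1 (0.104), HZ replicate 4 (0.0502), KO replicate 1 (0.0503), KO replicate 2 (0.0975) or KO replicate 4 (0.0539) was left out, without both arrays numbered 4 (0.0691), with no filter on dim probes (0.0610) and with the mean of its probes (-0.11, unadjusted p = 0.305). Cyp7b1 (-0.35), Abca1 (0.25), Nr1h2 (-0.18) and Cyp46a1 (0.16) were the others among the 5 largest differences and did not pass an unadjusted p of 0.05. The sign of Nr1h2, lowest on KO replicate 1, was not stable, since it was at 0.06 without that array, at 0.03 with normexp background correction and at 0.25 on its other probe. Under the replicate block the unadjusted p of Cyp7b1 was 0.0232, and its other probe differed by -1.27 (limma unadjusted p = 0.0225). Ch25h and Cyp27a1 were not tested.

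Around Fasn and Acaca, 8 of 16 tested genes of fatty acid synthesis were higher and 8 lower, with a median of -0.02, and the 2 past an unadjusted p of 0.05 were Fasn and Acaca. Acly, which supplies cytosolic acetyl-CoA, read 5.01, 5.05, 4.93 and 4.89 on HZ replicates 1 to 4 and 0.40, 5.13, 5.04 and 5.04 on KO replicates 1 to 4. KO replicate 1 alone set its difference of -1.07, which was 0.10 without that array, and the other Acly probe differed by 0.003. Oxsm, of mitochondrial fatty acid synthesis, was at -0.74 (standard error 0.34, limma unadjusted p = 0.0623, and 0.0244 with the replicate block), and its other probe at -0.07. Without HZ replicate 4 Oxsm was at -0.46 (unadjusted p = 0.138) and without HZ replicate 2 at -1.03 (unadjusted p = 0.00694). Slc25a1, the citrate carrier, was at -0.37. Of 6 tested desaturases and elongases, 2 were higher and 4 lower, with a median of -0.20, and 0 passed an unadjusted p of 0.05. Scd2, a stearoyl-CoA desaturase, read 2.74, 3.76, 3.05 and 2.80 on HZ replicates 1 to 4 and 2.31, 3.02, 2.59 and 2.34 on KO replicates 1 to 4. Both groups were highest on the array numbered 2, and KO was lower in each pair. Its difference was -0.52 (standard error 0.25, limma unadjusted p = 0.0733), with an unadjusted p of 0.00199 under the replicate block. It was smaller without HZ replicate 2 (-0.30, unadjusted p = 0.157) and with normexp background correction (-0.33, unadjusted p = 0.192). Elovl6 (-0.33), Elovl5 (-0.30), Fads2 (0.12) and Elovl1 (-0.09) followed. With normexp background correction Fads2 was at -0.24, past an unadjusted p of 0.05. Scd1 was not well above background on any array.

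**Figure D3:**
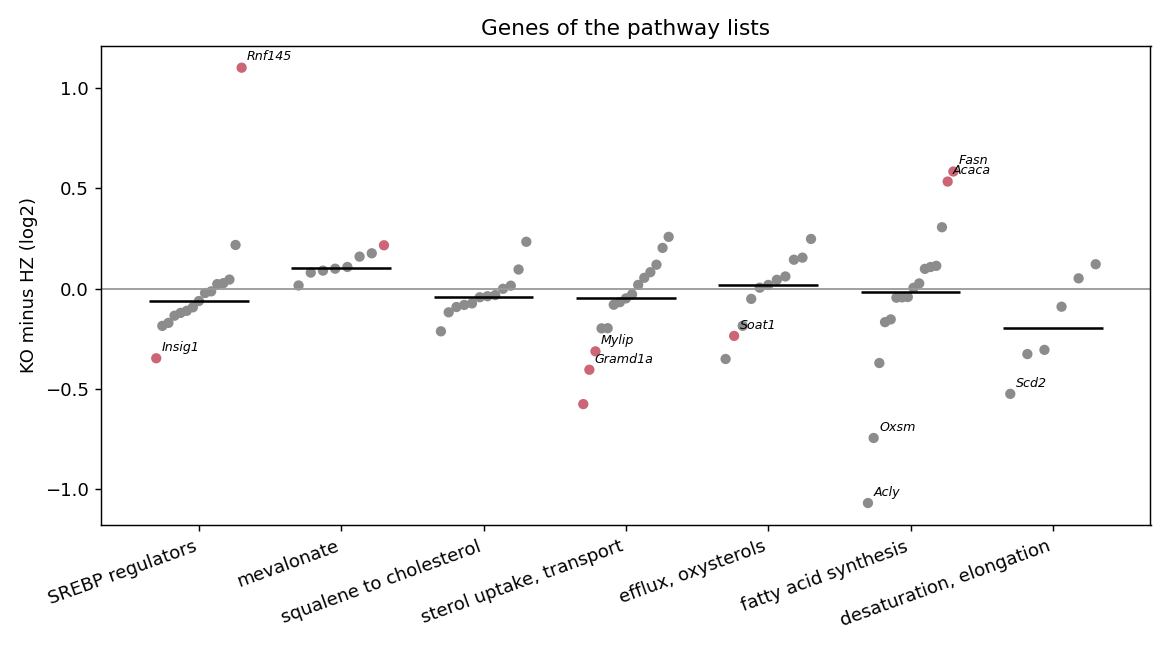
KO minus HZ difference (log2, vertical axis) of each tested gene in 7 pathway lists, ordered by size within a list, for arrays labelled KO and HZ. Red points passed an unadjusted p of 0.05 in limma, grey points did not, and black bars are medians. Rnf145 lies highest at 1.102, and Acly lies lowest at -1.07 through KO replicate 1.

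By replicate number, limma's moderated F test called 0 of the 8 genes at an unadjusted p under 0.05, beside 13.2% of all tested genes. The lowest p among the 8 was that of Acaca at 0.0883, followed by Srebf1 at 0.146 and Hmgcs1 at 0.193, and the highest was that of Sqle at 0.932. It was 0.0236 for Acaca with trend and robust eBayes and 0.0499 for Srebf1 without KO replicate 4. At an adjusted p under 0.05 it called 0 of 34281 probes, against 4737 at an unadjusted p under 0.05. In the lists around the 8 genes, the unadjusted p was lowest for Cyp7b1 (0.00169), Scd2 (0.00322), Apod (0.0111), Elovl5 (0.0126) and Mlxipl (0.0144). Cyp7b1, an oxysterol hydroxylase, read -3.47, -2.04, -3.06 and -3.41 on HZ replicates 1 to 4 and -3.59, -2.68, -3.42 and -3.68 on KO replicates 1 to 4. As for Scd2, both groups were highest on the array numbered 2. Apod and Elovl5 were also highest there in both groups, and Mlxipl, a carbohydrate-responsive factor, was lowest there in both. The others past an unadjusted p of 0.05 were Cyp46a1, Abca1 and Apoe among efflux genes, Acacb, Fads1, Mbtps2 and Gramd1b. In the mevalonate list the lowest p was that of Pmvk at 0.170, followed by Hmgcs1, Mvk (0.222), Idi1 and Fdps (0.521), and from squalene to cholesterol that of Dhcr7 at 0.0691, and Hsd17b7 (0.185), Cyp51 (0.279) and Ebp (0.419) were above it. Next to the genes named, Npc2, Lrp8, Scarb1 and Stard4 in uptake and transport (0.0608 to 0.160) and Pnpla3 in fatty acid synthesis (0.0531) came closest.

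The mean profile of the sterol members Hmgcs1, Sqle, Idi1 and Insig1, each centred on its own mean, was 0.08, 0.12, -0.07 and -0.08 on HZ replicates 1 to 4 and -0.02, 0.01, -0.06 and 0.03 on KO replicates 1 to 4. Its range was narrow and its highest and lowest arrays were both HZ. Among 7958 genes outside the lists, those that followed it most closely over the 8 arrays, which share a slide, were Zfp940 (Pearson's r of 0.947), Eif2b3 (0.928), Dnajc24 (0.912), Gpx7 (0.909) and Cenpw (0.900). They were ranked from many genes, and the values are a description.

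Markers of photoreceptors and of other retinal cells were read on the same arrays. Of 21 rod markers 5 were higher and 16 lower, with a median of -0.10. Their summed level, in multiples of each array's 75th percentile, was 1663, 1460, 1532 and 1806 on HZ replicates 1 to 4 and 1634, 1430, 1403 and 1467 on KO replicates 1 to 4. Pde6g was the most abundant, and Gnb1 differed most (-0.73). Of 11 cone markers 10 were higher, with a median of 0.17, Gngt2 was the most abundant and Arr3 differed most (0.49). The cone sums were 140.5, 206, 206.2 and 131 in HZ and 177.3, 230.5, 182.3 and 190.3 in KO. Rod and cone markers were thus present on each array.

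Markers of retinal pigment epithelium (RPE) were lower in KO for 21 of 23 tested genes, 17 of them at an unadjusted p under 0.05, beside 3.50% of all tested genes, with a median of -1.14. The most abundant gene of that list was Otx2, which photoreceptor and bipolar cells also express and which differed by 0.12. The sums were 167, 136, 148 and 139 in HZ and 145, 142, 137 and 135 in KO with Otx2, and 46.7, 19.3, 30.5 and 27.9 in HZ and 16.9, 12.4, 15.01 and 9.25 in KO without it. Rpe65 differed most, by -2.38. Cdh3, among the 17, was well above background on 4 HZ arrays and 2 KO arrays. Microglia markers were higher for 13 of 13 genes, 5 of them at an unadjusted p under 0.05, beside 5.81% of all tested genes, with a median of 0.76. Under the replicate block 2 passed, where 4075 of all 34281 tested probes passed in either direction. Tmem119, which passed with and without the block, was well above background on 1 HZ array and 3 KO arrays. In the pair numbered 4 KO was lower for 11 of the 13. Their sums were 4.46, 4.87, 4.34 and 8.45 in HZ and 10.6, 8.16, 6.21 and 6.60 in KO, and Cx3cr1 differed most (0.93). Red blood cell markers were higher for 3 of 3 tested genes. All 3 were so at an unadjusted p under 0.05, beside 5.81% of all tested genes. All 3 also passed under the replicate block, where 4075 of all 34281 tested probes passed in either direction. These markers had a median of 1.58. Their sums were 0.606, 0.257, 0.238 and 0.253 in HZ and 2.18, 0.665, 0.349 and 1.18 in KO. Hba-a1 was the most abundant, Hbb-bt differed most (1.70), and Alas2 was not well above background on any array. Hbb-bt was well above background on 2 HZ arrays and 4 KO arrays, so that its difference, rank and call are not exact. Astrocyte markers were higher for 3 of 5, with a median of 0.55. Of these, 2 were higher at an unadjusted p under 0.05, beside 5.81% of all tested genes. Under the replicate block 3 were higher and 1 lower at that limit, beside 4075 of all 34281 tested probes in either direction. Their sums were 0.620, 1.083, 1.21 and 1.17 in HZ and 1.09, 1.64, 1.31 and 1.59 in KO, Pdgfra was the most abundant, Gfap differed most (0.82, past a fold of 1.5 at an adjusted p of 0.333), and Gjb6 was not well above background on any array. RPE markers were thus lower, and microglia, red blood cell and astrocyte markers mostly higher, on the same arrays on which Fasn, Acaca and Rnf145 were higher and Insig1 was lower, and their part in those differences was not tested.

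**Figure D4:**
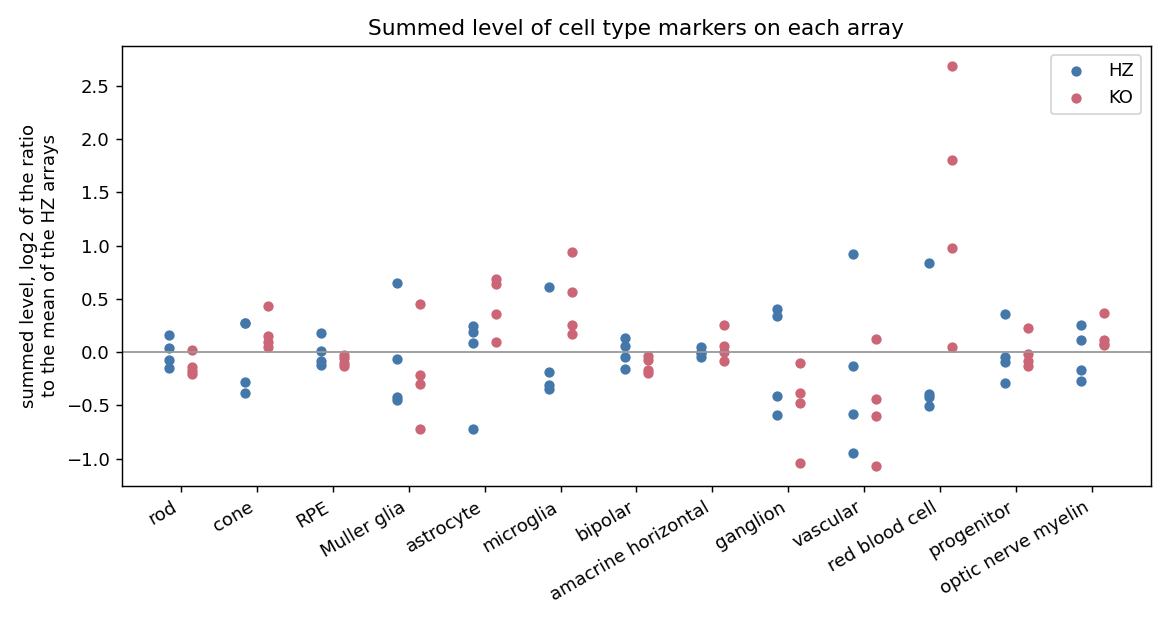
Summed level of each marker list on each array, as the log2 of its ratio to the mean of the HZ arrays (vertical axis), for HZ (blue) and KO (red). Microglia and red blood cell sums tend to lie higher in KO, and the RPE sum, which Otx2 dominates, changes little.

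The other lists had medians of -0.28 (Muller glia, 10 of 12 lower), -0.34 (bipolar cells, 10 of 12 lower), 0.07 (amacrine and horizontal cells, 4 of 7 higher), 0.06 (ganglion cells, 2 of 3 higher), 0.40 (vascular cells, 4 of 6 higher), -0.29 (progenitors, 5 of 7 lower) and 0.14 (myelin of the optic nerve, 3 of 5 higher). Their most abundant genes were Apoe, Otx2, Slc6a9, Pou4f1, Kdr, Pcna and Mbp, and the largest differences, bipolar cells aside, those of Car14 (-1.28), Slc32a1 (-0.44), Pou4f1 (-0.80), Vwf (1.41), Ccnd1 (-0.61) and Sox10 (-0.92). Vwf was well above background on 2 HZ arrays and 4 KO arrays, and Sox10 on 4 HZ arrays and 2 KO arrays. The differences and ranks of these genes are therefore not exact. The summed level of the Muller glia markers was 17.6, 36.9, 22.6 and 17.3 in HZ and 20.3, 32.3, 19.1 and 14.3 in KO, highest on the arrays numbered 2 in both groups, as Scd2, Cyp7b1, Apod and Elovl5 were. The sums of the progenitor, vascular, myelin and amacrine and horizontal markers were also highest on those arrays. Without the most abundant gene of each list, this held for Muller glia, progenitors and amacrine and horizontal cells. Without Kdr the vascular sum was highest on HZ replicate 4 (0.474) and KO replicate 4 (0.708). Without Mbp the myelin sum was lowest in HZ on replicate 2 (1.335) and highest in KO on replicate 4 (2.06). The part of these markers in the values of the 4 genes was not tested. Of the ganglion cell markers 4, and of the vascular markers 5, were not well above background on any array.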

How the data were processed

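The authors deposited, for each spot of the 8 single-color arrays, a background-subtracted intensity from Agilent Feature Extraction 10.7.1.1. A table of log2 values that the authors had shifted by the 75th percentile and centred on each probe's median was used as an alternative. Here each array's 75th percentile over non-control spots was subtracted from the log2 intensity. Spots marked as outliers were left out, also when signal over background was judged, and repeated spots of a probe were combined by their mean. Testing required 4 or more arrays with signal well above background and no fewer than 3 values for each label. RefSeq accessions (GRCm38.p6) gave names to 32994 of 56605 probes. The labels were compared across 34281 probes by limma 3.58.1 (lmFit, eBayes, two-sided; R 4.3.3 with the data.table package, 1.17.8), with Benjamini-Hochberg adjustment, and replicate number by a moderated F test beside the label. Plots were made with matplotlib 3.10.9. The fits were tested on simulated data. A gene is reported by its tested probe with the highest mean. Of 46 genes of the pathway lists with several tested probes, 21 had probes that differed in sign, so that counts by direction depend on this choice. Old symbols in the lists were updated for 1 gene.

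The methods give a fold over 1.2 or 1.5 and a q-value under 0.05 or 0.5. Used were 1.2 with 0.05, given for whole retina, 1.5 with 0.5, and the looser mix of 1.2 with 0.5. The members and lists were chosen with earlier results of these data known. Named are the members, Lpcat1, in each pathway list the 5 tested genes with the largest difference and the 5 with the smallest p for replicate number, in each marker list the most abundant gene and the largest difference, and the 5 genes outside the lists that follow the sterol members most closely, though not each gene so taken is described. Arrays of equal number deviated together from their group means (r of 0.172 to 0.337, above 0.1 in 4 of 4 pairs, against -0.337 to 0.117 for unequal numbers), so that the number pairs the arrays. The number is also the slide column, and what else such arrays share is not given in the sources used here. Alternatives covered the scaling (quantile, or a percentile over detected probes), the background (normexp with an offset of 50 on median spot signals), filters on dim probes, the authors' values, eBayes with trend and robust options, a replicate block, the methods' t-test, averaging over probes of a gene, thresholds, a fit for replicate number without the label, and omission of each array. Leaving out both arrays numbered 4, and the marker sums without the most abundant gene, were chosen after seeing the data.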

Additional observations from a re-analysis of the deposited data

Results flagged for a closer look

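Among 162 groups of 4 arrays, over the members and the named genes, 9 held a single array far from the other 3, and chance marks about 1 in 20 groups. None of the 8 members was among them. The widest gaps were those of Acly on KO replicate 1 (0.40, others 5.04 to 5.13) and Nr1h2 on the same array (2.34, others 3.30 to 3.36). On KO replicate 2, Apod stood at -2.52 (others -3.10 to -3.07), Mbp at 3.17 (others 2.80 to 2.83), Gngt2 at 7.26 (others 6.72 to 6.77) and Nsdhl at -1.88 (others -1.80 to -1.79). On HZ replicate 2, Pgrmc1 stood at 3.00 (others 2.65 to 2.70) and Fads2 at -1.26 (others -1.53 to -1.49). Lss on HZ replicate 1 was at 0.80 (others 0.75 to 0.76).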

How the results depend on the processing

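The members past an unadjusted p of 0.05 numbered 3, and 2 to 4 over the alternatives. The 356 probes past a fold of 1.5 with the limit of 0.5 on the adjusted p became 41 with no filter on dim probes, 201 features with the mean of a gene's probes, 1162 with the replicate number as a block, 920 at a fold of 1.2, 0 without both arrays numbered 4 (chosen after seeing the data), and 0 to 1634 with each array left out. The members past these thresholds went from 0 to 1 with the authors' values, 2 at a fold of 1.2, and 0 to 1 with each array left out. At a fold of 1.2 with an adjusted p under 0.05, the 0 probes became 1 with quantile normalization, 17 with normexp background correction, 3 with trend and robust eBayes and 2 by the methods' t-test after Benjamini-Hochberg adjustment. At an unadjusted p of 0.05, 2802 probes passed in limma, 3134 in the methods' t-test, and 1995 to 4982 with each array left out. For replicate number, the 4737 probes ranged from 3086 to 7469 and the members from 0 to 1 with each array left out, and 1 member passed with trend and robust eBayes.

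With normexp background correction the median of the members was 0.14 and that of the regulators 0.024, and Fads2 changed sign to -0.24, past an unadjusted p of 0.05. The median of desaturases and elongases ranged from -0.33 to -0.045 with each array left out. Among those 356 probes 78.1% were lower, and among the probes passing in other settings 64.5% with quantile normalization and 53.3% without HZ replicate 4. The cause of these changes was not tested. The median over all probes moved by less than 0.1 in each setting. The replicate block changed no call of a member at an unadjusted p of 0.05. With normexp background correction the difference of Insig1 went from -0.35 to -0.05.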
